A study of Rattus norvegicus with 9 samples.

Results

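The genes described here encode 4 secreted proteins that cells attach to or signal through, thrombospondin-1 (Thbs1), tenascin-C (Tnc), fibronectin (Fn1) and the CCN protein Wisp1, and 2 chains of fibrillar collagens, Col5a1 and Col1a1. They were chosen by symbol for how they stood in these libraries, all 6 were found among the 17315 genes of the count tables, and all 6 passed the filter on low counts with 10128 genes in all. Tnc passed this filter only through its vehicle libraries. RNA came from primary cultures of rat horizontal basal cells (strain SD, passage 7), reserve stem cells of the olfactory epithelium. The vehicle group (0.1% DMSO, time 0 in the labels) had 3 libraries. PMA, the phorbol ester phorbol 12-myristate 13-acetate, activates protein kinase C. It was given at 50 nM, and 3 libraries were made at 6 h and 3 at 12 h. No vehicle library carries a label of 6 h or 12 h, so PMA cannot be told apart from time in culture. The labels do not say whether libraries of a group came from separate animals or cultures, and p-values measure the spread between these libraries alone.

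Epithelial stem cells rest on a basement membrane and read their surroundings through integrins and other receptors that bind matrix proteins. Fibronectin assembles into fibrils under tension from integrins and takes part in wound repair, while thrombospondin-1 and tenascin-C modulate that adhesion. Collagen V chains are built into the same fibrils as collagen I and control their diameter, and CCN proteins such as Wisp1, a Wnt-induced gene, tie growth factors and integrins to the matrix.

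Levels are given in CPM, a gene's reads scaled to the TMM-adjusted library size, which is not a level per gene length and is compared only between libraries. In bulk RNA, fewer cells of a type and less RNA per cell cannot be told apart. Libraries held 13601635 to 19001819 reads in genes. All 8 basal cell markers were detected, with a summed level of 14880 to 17080 CPM in vehicle, 2505 to 3015 CPM at 6 h and 3922 to 4573 CPM at 12 h. Most of that sum was the keratins Krt5 and Krt14. Krt15, Tp63, Itga6 and Itgb4 also had lower means at both times than in vehicle, whereas the mean of Icam1 was 143 CPM in vehicle, 176 CPM at 6 h and 359 CPM at 12 h, and that of Egfr was 45.5, 38.4 and 70.9 CPM at these times. Of 13 fibroblast and pericyte markers, 8 had no read in any library, among them Pdgfrb, Thy1, Lum and Prrx1, and 11 had means below 1 CPM in each group. The summed level of these 13 was 4.49 to 6.05 CPM in vehicle, 0.692 to 1.85 CPM at 6 h and 1.04 to 3.78 CPM at 12 h, most of it from Cspg4 and Pdgfra. Means below 1 CPM in each group also held for 6 of 7 glial, 4 of 5 endothelial and 3 of 5 immune markers, and Sox10 and Fabp7 of glia and Ptprc of leukocytes had no read. The summed glial level was 2.24 to 2.50 CPM in vehicle, 1.54 to 2.28 CPM at 6 h and 1.31 to 2.18 CPM at 12 h. The summed endothelial level was 0.129 to 0.266 CPM in vehicle, 1.25 to 1.87 CPM at 6 h and 1.91 to 4.08 CPM at 12 h. Most of the 12 h sum was from Kdr, with a mean of 2.503 CPM, while Pecam1 stood at 0.0578 CPM and Cdh5 had no read there. The summed immune level was 26.7 to 29.1 CPM in vehicle, 70.4 to 72.8 CPM at 6 h and 83.6 to 95.7 CPM at 12 h, most of it from Cd68, a lysosomal protein. The mean of Cd14 went the other way, with 7.798 CPM in vehicle, 1.475 CPM at 6 h and 3.259 CPM at 12 h. The part of these markers in the results was not tested.

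Cell cycle genes varied among vehicle libraries. The summed level of 10 mitosis genes was 283 CPM in vehicle replicate 1, 608 CPM in replicate 2 and 1116 CPM in replicate 3, and it was 18.0 to 23.2 CPM at 6 h and 10.3 to 13.5 CPM at 12 h. Thbs1, Fn1, Wisp1 and Col1a1 had their lowest vehicle level in replicate 3, by a small margin for Wisp1. Without that library the log2 fold change at 6 h against vehicle was -4.27 for Thbs1, -0.74 for Fn1, -5.725 for Wisp1 and -0.92 for Col1a1. At 12 h it was -0.68, -1.24, -3.32 and -1.53 for these genes in the same order. Tnc had its highest vehicle level in replicate 3, and its 6 h value without that library was -1.59. The values with all libraries are given below. The part of these mitosis genes in the results was not tested.

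Because the 6 genes were picked for their values in these libraries, their levels and fold changes are a description and carry no p-value. All 6 had a lower mean after 6 h and after 12 h of PMA than in vehicle. At 6 h the PMA libraries lay below every vehicle library for 5 of the 6 genes, the exception being Col1a1, where 40.3% of all tested genes lay lower without overlap and 38.6% higher. At 12 h this held for 4 of the 6, with Thbs1 and Col1a1 overlapping vehicle, where 40.0% of all tested genes lay lower without overlap and 38.7% higher. By the adjusted p used below for other genes, 76.8% of all tested genes differed from vehicle at 6 h, 75.8% differed from vehicle at 12 h and 51.1% differed between 12 h and 6 h. Nothing is read from the counts of the 6 genes, since these comparisons were used to choose them. Without vehicle replicate 3 all 6 genes were separated at both times, against 42.4% of tested genes at 6 h and 41.7% at 12 h. Between 12 h and 6 h the genes parted: Thbs1, Wisp1 and Col5a1 lay higher at 12 h with no overlap, as did 28.5% of tested genes, Fn1 lay lower with no overlap, as did 29.6%, and Tnc and Col1a1 overlapped. Without 6 h replicate 1 Tnc also lay lower at 12 h than at 6 h, and without 12 h replicate 3 Col1a1 did.

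**Figure D1:**
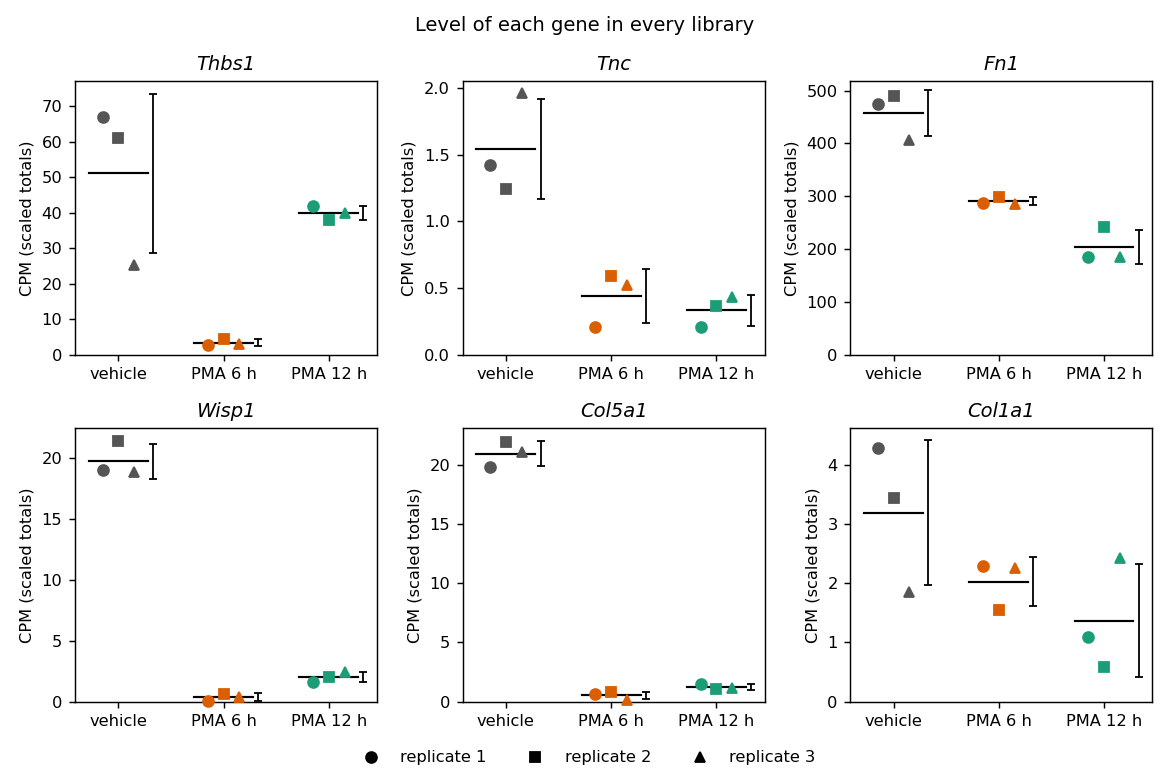
Level of the 6 matrix genes in each library, in CPM on axes that start at 0, in vehicle, after 6 h and after 12 h of PMA. Points are libraries, with the shape giving the replicate number, horizontal lines are group means and bars are ±1 SD (n = 3). Thbs1 stands at 2.77 to 4.41 CPM at 6 h and at 37.9 to 41.9 CPM at 12 h, whereas Wisp1 and Col5a1 stay under 2.5 CPM at both times.

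Thbs1, an adhesion-modulating glycoprotein that also activates latent TGF-beta, was low at 6 h and within the range of the vehicle libraries at 12 h. It stood at 66.9, 61.0 and 25.3 CPM in the vehicle libraries, at 2.77, 4.41 and 2.89 CPM at 6 h and at 41.9, 37.9 and 40.0 CPM at 12 h. Every 6 h library was below all others, and the 12 h libraries lay between vehicle replicate 3 and the other two vehicle libraries. The mean at 6 h was 3.36 ± 0.913 CPM against 51.1 ± 22.5 CPM in vehicle (SD, n = 3 each), a 15.2-fold lower level with a log2 fold change of -3.94 ± 0.42 (SE). At 12 h the mean was 39.9 ± 1.97 CPM, which gave a log2 fold change of -0.36 ± 0.33 against vehicle, or -0.68 without vehicle replicate 3. That value was -0.64 with upper-quartile scaling and -0.94 without normalization, where the median of all tested genes was -0.29 and -0.60. The 12 h mean was 11.9-fold that at 6 h (log2 fold change 3.58 ± 0.42), and 99.8% of tested genes had a smaller value in that comparison. At 12 h against vehicle 38.5% of tested genes had a smaller value than Thbs1. The vehicle libraries varied more than any other group of this gene, with a coefficient of variation of 44.1% against 4.93% at 12 h.

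Wisp1 and Col5a1 stood lowest relative to vehicle among the 6 genes at both times. Wisp1 stood at 18.99, 21.4 and 18.9 CPM in vehicle, at 0.0692, 0.661 and 0.405 CPM at 6 h and at 1.63, 2.03 and 2.43 CPM at 12 h. The 3 groups did not overlap, and the 6 h level rested on 1, 9 and 7 reads. Its mean at 6 h was 0.378 ± 0.297 CPM against 19.8 ± 1.43 CPM in vehicle, or 1.92% of the vehicle mean (log2 fold change -5.69 ± 0.33), and 0.513% of tested genes had a lower value. The 17 reads summed over the 6 h libraries have a 95% Poisson interval of 9.9 to 27.2 reads, which covers counting error only. At 12 h Wisp1 stood at 10.3% of the vehicle mean (-3.29 ± 0.26) and was 5.37-fold above 6 h (2.40 ± 0.40).

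Col5a1, the main chain of collagen V, stood at 19.8, 21.9 and 21.1 CPM in vehicle, at 0.623, 0.808 and 0.173 CPM at 6 h and at 1.497, 1.09 and 1.13 CPM at 12 h. Again no groups overlapped, and the 6 h libraries held 9, 11 and 3 reads of the gene. The mean at 6 h was 0.535 ± 0.326 CPM against 20.9 ± 1.06 CPM in vehicle (log2 fold change -5.33 ± 0.30). At 12 h it was 1.24 ± 0.225 CPM, or 5.91% of the vehicle mean (-4.06 ± 0.27), and 2.32-fold above 6 h (1.27 ± 0.39). In contrast to Thbs1, the vehicle libraries were close together for Wisp1 and Col5a1, with coefficients of variation of 7.26% and 5.07%.

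Fn1 had at least 2141 reads in each library and stood lower by smaller steps. It stood at 475, 490 and 407 CPM in vehicle, at 287, 299 and 285 CPM at 6 h and at 185, 241 and 186 CPM at 12 h. Each group lay wholly below the one before it. The mean was 290 ± 7.55 CPM at 6 h against 457 ± 44.3 CPM in vehicle (log2 fold change -0.66 ± 0.10), and 204 ± 32.3 CPM at 12 h, or 44.6% of the vehicle mean (-1.17 ± 0.10). Against vehicle, 30.2% of tested genes had a lower value than Fn1 at 6 h and 17.7% at 12 h. The difference between 12 h and 6 h was -0.51 ± 0.10. Without normalization the values of Fn1 were -1.20 at 6 h and -1.74 at 12 h against vehicle, and the median of all tested genes was -0.57 and -0.60.

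Tnc, a glycoprotein of wounded and remodelling tissue, was scarce throughout. It stood at 1.42, 1.25 and 1.97 CPM in vehicle, at 0.208, 0.588 and 0.520 CPM at 6 h and at 0.204, 0.363 and 0.434 CPM at 12 h. All PMA libraries lay below all vehicle libraries, while 6 h and 12 h overlapped. Tnc passed the filter on low counts only through its vehicle libraries, so its separation from vehicle is in part set by that filter. The summed reads were 99 in vehicle, 20 at 6 h (95% Poisson interval 12.2 to 30.9) and 13 at 12 h (6.92 to 22.2). The log2 fold change was -1.79 ± 0.51 at 6 h and -2.21 ± 0.54 at 12 h against vehicle, and -0.42 ± 0.65 between 12 h and 6 h.

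Col1a1, a chain of collagen I and the main fibrillar collagen of connective tissue, was the least separated of the genes. It stood at 4.27, 3.44 and 1.86 CPM in vehicle, at 2.28, 1.54 and 2.26 CPM at 6 h and at 1.09, 0.581 and 2.43 CPM at 12 h. Vehicle replicate 3 lay below 2 of the 6 h libraries and below 12 h replicate 3, and 12 h replicate 3 also lay above all 6 h libraries, so the groups overlapped in every comparison. The mean was 2.03 ± 0.42 CPM at 6 h against 3.19 ± 1.23 CPM in vehicle (log2 fold change -0.66 ± 0.41). It was 1.37 ± 0.954 CPM at 12 h (-1.27 ± 0.44 against vehicle, -0.61 ± 0.47 against 6 h). Without 12 h replicate 3 these last values were -1.92 and -1.27, and without 12 h replicate 2 they were -0.89 and -0.24. Against vehicle, 30.3% of tested genes had a lower value than Col1a1 at 6 h and 16% at 12 h. In the RefSeq gene table (GRCr8) Col1a1 overlaps Sgca, which had 37 to 130 reads per library, and Thbs1 and Tnc each overlap a long noncoding RNA. Counts without strand cannot part overlapping genes. Reads that hit more than 1 counted gene were kept apart as ambiguous, so reads shared by Col1a1 and Sgca would be missing from both. The long noncoding RNAs were not among the counted genes, so their reads could be counted for Thbs1 or Tnc. The counts of these 3 genes are uncertain to that extent.

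**Figure D2:**
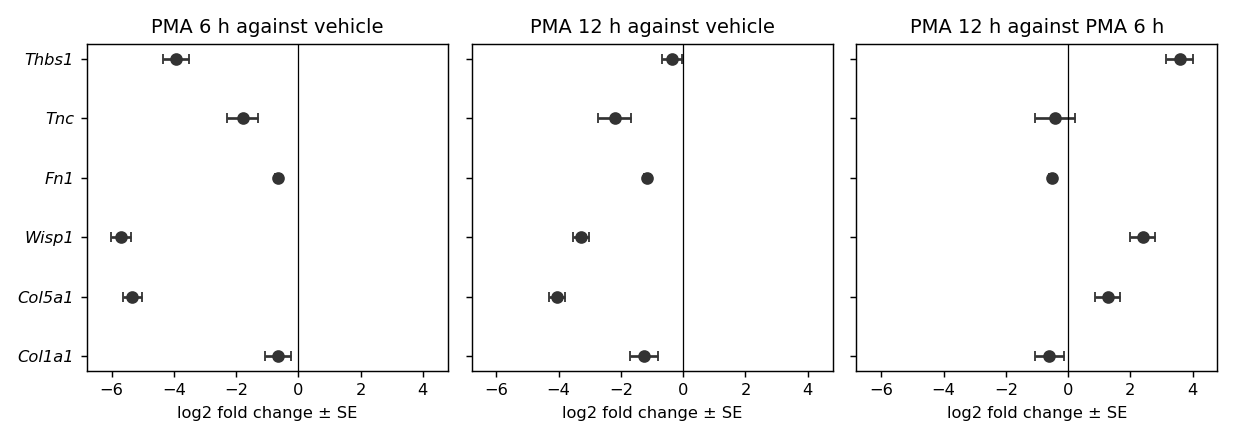
Log2 fold change of each gene (points) with its SE (bars) for 6 h of PMA against vehicle, 12 h against vehicle and 12 h against 6 h, on the same axis in each panel; the vertical line marks no difference. Thbs1 stands at -3.94, -0.36 and 3.58, whereas Fn1 stands at -0.66, -1.17 and -0.51.

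Among the 6 genes, Fn1 with Tnc and Fn1 with Col1a1 had the smallest distances over the 9 libraries. For this distance, each gene's log2 CPM was centred on its own mean over the 9 libraries and the root mean square difference between 2 genes was taken. Levels were not scaled to the size of a gene's change, so size of change and counting noise enter along with shape. The distance was 0.575 for Fn1 and Tnc, 0.600 for Fn1 and Col1a1 and 0.847 for Wisp1 and Col5a1, and the nearest to Thbs1 was Wisp1 at 1.34. Among other genes of at least 5 CPM, the nearest to Fn1 were Pdcd4, a translation inhibitor, at 0.0949 and LOC499339 at 0.101. Nearest to Thbs1 were Plekhf1 at 0.523 and Fhl2, a LIM domain protein, at 0.580. Fhl2 stood at 65.8 CPM in vehicle, 10.1 CPM at 6 h and 67.1 CPM at 12 h. Nearest to Wisp1 were RGD1311756 at 0.522 and Zfp365 at 0.671, and nearest to Col5a1 were Fam111a at 0.434 and the deaminase Dctd at 0.449. Nearest to Tnc were Wdr92 at 0.218 and Ifrd2 at 0.234, and nearest to Col1a1 were Tmem104 at 0.404 and Cth, an enzyme of cysteine synthesis, at 0.416. These distances describe the 9 libraries and have no test.

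Promoter sequences of 3 of the 6 genes, Thbs1, Tnc and Col5a1, were in the RefSeq promoter table (GRCr8, 250 bases before to 50 after each gene start). All 6 genes were looked up, and these 3 are shown because only they were found. The part of these sequences in the levels was not tested. The capitals mark every match, on either strand, to the GC box (GGGCGG), the CCAAT box, the TATA box (searched as TATAAA) and the core of the TEAD factor motif (GGAATG). Thbs1 lies at chr3:125510000-125510299 on the + strand, Tnc at chr5:82476082-82476381 on the - strand and Col5a1 at chr3:31606630-31606929 on the + strand.
Thbs1: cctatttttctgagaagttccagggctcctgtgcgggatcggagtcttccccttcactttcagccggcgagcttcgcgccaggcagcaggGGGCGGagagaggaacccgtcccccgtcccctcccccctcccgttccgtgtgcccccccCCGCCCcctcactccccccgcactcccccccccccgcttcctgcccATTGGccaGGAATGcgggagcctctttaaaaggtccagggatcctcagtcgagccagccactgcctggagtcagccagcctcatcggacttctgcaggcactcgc
Tnc: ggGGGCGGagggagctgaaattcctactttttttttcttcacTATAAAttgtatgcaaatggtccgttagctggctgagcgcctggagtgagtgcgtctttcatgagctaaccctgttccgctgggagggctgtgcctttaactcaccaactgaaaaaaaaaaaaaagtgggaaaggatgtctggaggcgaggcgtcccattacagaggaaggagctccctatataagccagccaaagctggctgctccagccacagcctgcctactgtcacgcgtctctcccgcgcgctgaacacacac
Col5a1: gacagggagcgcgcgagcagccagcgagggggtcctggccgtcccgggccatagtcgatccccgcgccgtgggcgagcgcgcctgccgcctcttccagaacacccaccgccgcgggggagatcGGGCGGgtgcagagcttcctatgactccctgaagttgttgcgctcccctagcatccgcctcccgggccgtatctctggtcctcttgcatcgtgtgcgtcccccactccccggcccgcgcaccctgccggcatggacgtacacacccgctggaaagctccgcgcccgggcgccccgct
The Thbs1 window held the TEAD core at bases 204 to 209, an inverted CCAAT box at 196 to 200 and GC boxes at 91 to 96 and 150 to 155. The Tnc window held a GC box at 3 to 8 and the letters TATAAA at 43 to 48, and the Col5a1 window held a GC box at 124 to 129. This TATAAA match begins at -208 from the gene start. Only the exact letters TATAAA were searched, so variants such as the TATATAA later in the Tnc window are not marked. No marked matches overlapped each other. Of all 33469 promoters in the table, 14.2% held the TEAD core, 33.1% the GC box, 37.5% the CCAAT box and 14.2% the TATA box. The AP-1 motif TGANTCA, which 7.33% of promoters held, and the CArG box of SRF, which 1.64% held, had no match in the 3 windows.

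The other genes of the same families went in both directions, as did all tested genes, of which 37.8% rose and 39.0% fell at 6 h. Those shares were 37.7% and 38.2% at 12 h, and 25.3% and 25.8% at 12 h against 6 h. Of 12 thrombospondin, tenascin and CCN genes besides those above, 4 passed the filter, and 2 rose and 2 fell at 6 h, 2 rose and 1 fell at 12 h, and 3 rose at 12 h against 6 h. Calls are at an adjusted p under 0.05 in edgeR's quasi-likelihood test, with p adjusted by Benjamini-Hochberg over all 10128 genes. Without any 1 vehicle library, 6 h replicate 2 or any 1 12 h library a 5th gene passed the filter, and 3 rose at 6 h. Thbs2, the closest relative of Thbs1, stood at 2.33, 2.45 and 3.08 CPM in vehicle, at 0.138, 0.808 and 0.289 CPM at 6 h and at 1.16, 4.14 and 2.25 CPM at 12 h. The 6 h libraries lay below all others, and 12 h overlapped vehicle. Thbs2 fell at 6 h against vehicle (log2 fold change -2.68 ± 0.55, adjusted p = 0.00028) and rose at 12 h against 6 h (2.63 ± 0.57, adjusted p = 0.00093), and its value at 12 h against vehicle was -0.06 ± 0.44 (adjusted p = 0.91). Without 6 h replicate 2 the first and second of these were -3.53 and 3.48. Thbs3 fell at both times, to 8.71 ± 1.35 CPM at 6 h and 8.01 ± 1.17 CPM at 12 h against 17.1 ± 4.19 CPM in vehicle (adjusted p = 0.00027 and 1e-04 by the same test).

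Cyr61 and Ctgf, CCN genes known as targets of YAP and TEAD, went the other way from Wisp1 against vehicle. Between 12 h and 6 h these genes all lay higher, with log2 fold changes of 2.40 for Wisp1, 3.01 for Cyr61 and 2.235 for Ctgf. Cyr61 stood at 33.3, 34.0 and 35.5 CPM in vehicle, at 128, 119 and 101 CPM at 6 h and at 874, 1034 and 898 CPM at 12 h. It rose at each step without overlap (log2 fold change 1.76 ± 0.09 at 6 h, adjusted p = 1.6e-11; 4.77 ± 0.10 at 12 h, adjusted p = 4.1e-16, by edgeR's quasi-likelihood test). Ctgf rose to 11.6 ± 1.72 CPM at 6 h and 54.3 ± 4.06 CPM at 12 h, against 5.63 ± 1.75 CPM in vehicle (1.02 ± 0.19 and 3.26 ± 0.19, adjusted p = 0.00013 and 1.2e-10).

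**Figure D3:**
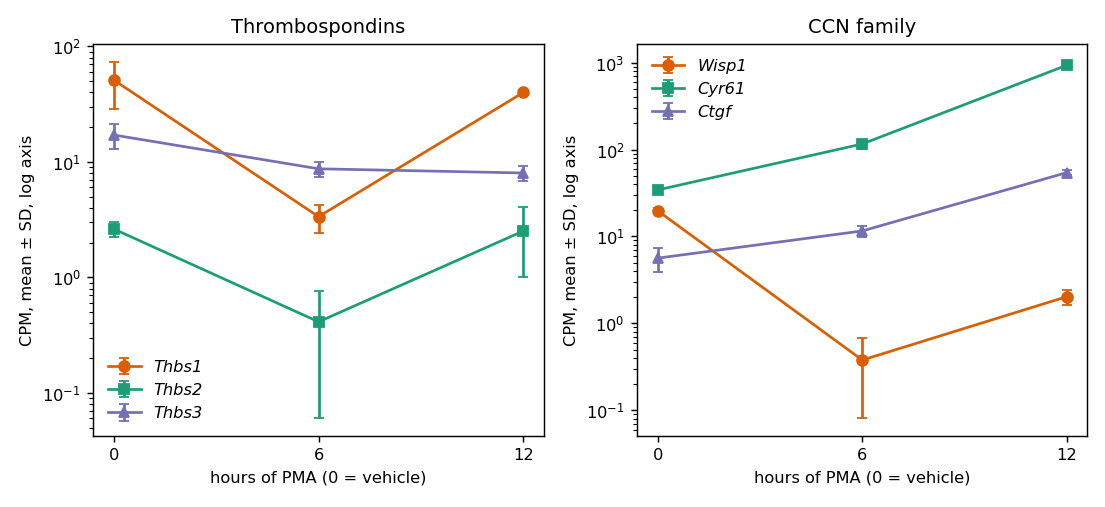
Mean CPM ± SD (n = 3) on a log axis against hours of PMA, with vehicle at 0 h, for 3 thrombospondin genes and 3 CCN genes. Thbs1 and Thbs2 dip at 6 h, Thbs3 stands at 8.71 and 8.01 CPM under PMA, and Wisp1 lies below vehicle while Cyr61 reaches 935 CPM and Ctgf 54.3 CPM.

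The wider matrix programme was read from 7 lists with 133 entries that leave out the 6 genes, of which 106 were in the tables and 56 passed the filter. At 6 h against vehicle 16 of the 56 (28.6%) rose and 26 (46.4%) fell, where 37.8% of all tested genes rose and 39.0% fell. Their median log2 fold change was -0.50, against -0.03 over all tested genes. At 12 h against vehicle 22 (39.3%) rose and 17 (30.4%) fell, where 37.7% and 38.2% of all tested genes did, with a median of -0.06 against -0.02. At 12 h against 6 h 23 (41.1%) rose and 8 (14.3%) fell, where 25.3% and 25.8% of all tested genes did, with a median of 0.22 against 0.01. Without 6 h replicate 2 the last count of genes that fell was 5. The split against vehicle moved with the scaling: it was 12 higher and 37 lower at 6 h and 8 higher and 32 lower at 12 h without normalization, and 13 higher and 29 lower at 6 h and 16 higher and 25 lower at 12 h with upper-quartile scaling. Over all genes the call was 2277 higher and 5855 lower at 6 h and 2120 higher and 6021 lower at 12 h without normalization, and 3023 and 4837 at 6 h and 2963 and 4827 at 12 h with upper-quartile scaling. The lists were not tested as sets, and the counts of single lists below stand beside these same shares of all tested genes.

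**Figure D4:**
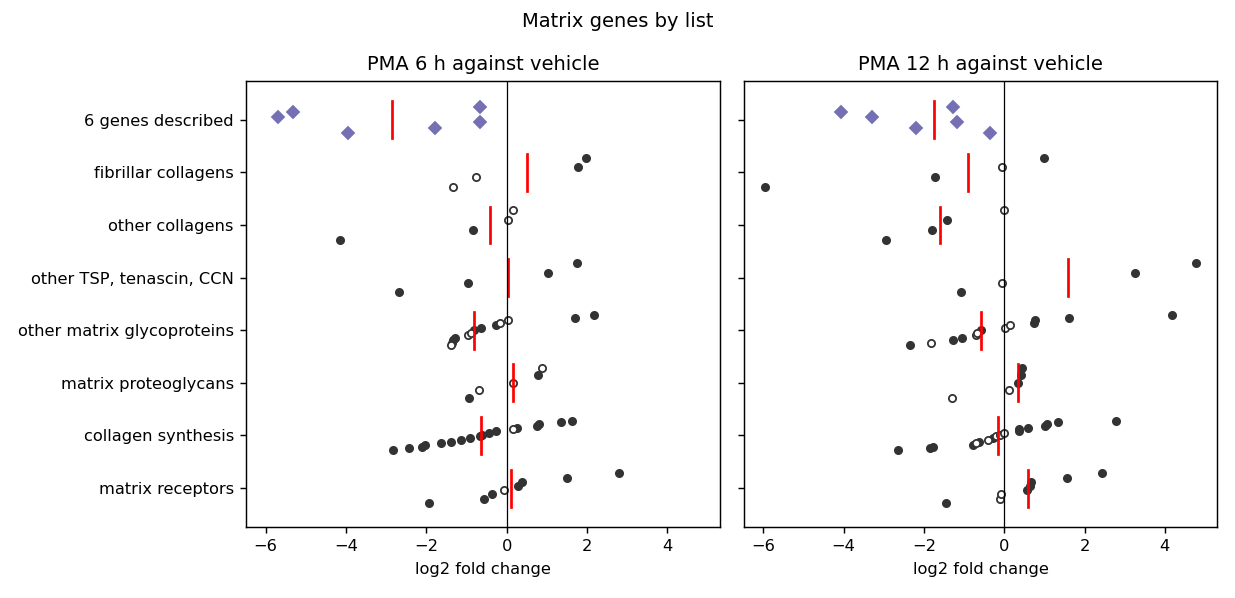
Log2 fold change at 6 h (left) and 12 h (right) of PMA against vehicle for the 6 genes described (diamonds, with no test) and for the tested genes of the 7 matrix lists (circles, filled where adjusted p was under 0.05, open where not), with red lines at the median of each row. The 18 genes of collagen synthesis have a median of -0.64 at 6 h and -0.16 at 12 h, and Cyr61 is the highest point of the right panel at 4.77.

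Enzymes and chaperones that make collagen moved in both directions, as did all tested genes, of which 37.8% rose and 39.0% fell at 6 h. Those shares were 37.7% and 38.2% at 12 h, and 25.3% and 25.8% at 12 h against 6 h. Of 18 tested genes of collagen synthesis and crosslinking, 5 rose and 12 fell at 6 h against vehicle, 7 rose and 6 fell at 12 h, and 9 rose and 2 fell at 12 h against 6 h. Without normalization 3 rose and 12 fell at 12 h, with upper-quartile scaling 5 rose and 10 fell, and without 6 h replicate 2 or 12 h replicate 1, 7 rose and 1 fell at 12 h against 6 h. P3h2, a collagen prolyl 3-hydroxylase, fell to 26.6 ± 1.44 CPM at 6 h and 30.2 ± 3.03 CPM at 12 h, against 190 ± 9.74 CPM in vehicle (log2 fold change -2.84 ± 0.09 and -2.66 ± 0.09, adjusted p = 2.1e-14 and 5.4e-14 by edgeR's quasi-likelihood test). Colgalt1, which adds galactose to collagen, fell to 24.3 ± 3.76 CPM at 6 h and 29.4 ± 1.53 CPM at 12 h, against 106 ± 2.35 CPM in vehicle. The lysyl oxidase Loxl4 fell to 16.8 ± 2.01 CPM at 6 h against 90.1 ± 7.98 CPM in vehicle, and stood at 52.1 ± 13.7 CPM at 12 h, a rise of 1.64 ± 0.17 over 6 h on the log2 scale (adjusted p = 2.9e-06). Its relative Loxl2 fell to 1.13 ± 0.254 CPM at 6 h and stood at 6.25 ± 1.23 CPM at 12 h, against 2.97 ± 0.733 CPM in vehicle. Plod2, a lysyl hydroxylase, rose to 14.7 ± 0.84 CPM at 6 h and 12.0 ± 2.36 CPM at 12 h, against 4.75 ± 0.989 CPM in vehicle. Adamts3, a procollagen N-proteinase, rose to 10.8 ± 1.93 CPM and 29.1 ± 2.74 CPM at these times, against 4.24 ± 0.267 CPM. P4ha2, a subunit of collagen prolyl 4-hydroxylase, rose to 139 ± 2.75 CPM at 6 h and 106 ± 0.496 CPM at 12 h, against 82.3 ± 9.25 CPM in vehicle (0.76 ± 0.08 and 0.36 ± 0.08, adjusted p = 1.9e-07 and 0.00072), and was lower at 12 h than at 6 h (-0.40 ± 0.08, adjusted p = 0.00066). The 12 h value of P4ha2 against vehicle was 0.09 with upper-quartile scaling (adjusted p = 0.34) and -0.22 without normalization (adjusted p = 0.025).

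Of the other collagens listed, 8 of 9 fibrillar and 12 of 24 further genes were in the tables, and 4 of each passed the filter; the rest were not analysed here. Col18a1, a basement membrane collagen, stood at 1362 ± 230 CPM at 6 h and 1337 ± 133 CPM at 12 h against 1342 ± 163 CPM in vehicle. It was not called with TMM scaling, but without normalization it was called lower at 6 h and at 12 h. Of 4 further fibrillar collagens tested, 2 rose and 0 fell at 6 h (1 fell with upper-quartile scaling, without normalization or without 6 h replicate 1). At 12 h 1 rose and 2 fell, with a median log2 fold change of -0.90 against 0.50 at 6 h. That count was 0 and 0 without vehicle replicate 2, vehicle replicate 3 or 12 h replicate 3, 1 and 1 without vehicle replicate 1, 1 and 0 without 12 h replicate 1, 0 and 1 without 12 h replicate 2, and 0 and 2 with upper-quartile scaling or without normalization. Col5a2, the partner chain of Col5a1, was at 4.66 ± 0.562 CPM at 6 h against 1.18 ± 0.521 CPM in vehicle (1.97 ± 0.47, adjusted p = 0.0013 by edgeR's quasi-likelihood test). At 12 h Col5a2 stood at 1.15 ± 0.873 CPM, with a log2 fold change against 6 h of -2.03 ± 0.50 (adjusted p = 0.0031). Col11a2 rose at 6 h to 4.09 ± 1.46 CPM against 1.18 ± 0.309 CPM in vehicle (1.78 ± 0.36, adjusted p = 0.00021). Col2a1 had 203, 4 and 1 reads in the 6 h libraries and 2, 2 and 1 reads at 12 h, against 189, 218 and 129 reads in vehicle. One 6 h library thus stood at the vehicle level while the other two were near 0, and the call at 12 h (-5.94 ± 2.12, adjusted p = 0.039) was lost without any 1 of the vehicle or 12 h libraries (adjusted p = 0.059 to 0.11). Of 4 other collagens tested, Col18a1 among them, 2 fell at 6 h and 3 at 12 h. Without normalization 3 fell at 6 h and 4 at 12 h, and without 12 h replicate 2 or 3, 2 fell at 12 h. Col16a1 fell to 0.206 ± 0.0891 CPM at 6 h against 3.66 ± 0.967 CPM in vehicle (-4.14 ± 0.52, adjusted p = 1.3e-06), and Col7a1, the anchoring fibril collagen, fell to 8.88 ± 1.68 CPM at 6 h and 5.93 ± 0.533 CPM at 12 h against 15.9 ± 4.08 CPM. Col2a1 and Col16a1 passed the filter on low counts through their vehicle libraries and not through PMA.

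Among 13 other matrix glycoproteins, 2 rose and 6 fell at 6 h, and 4 rose and 4 fell at 12 h (1 rose and 10 fell at 6 h and 1 rose and 8 fell at 12 h without normalization; 1 rose at 6 h without vehicle replicate 1 or 2). Nid2, a basement membrane linker, fell to 4.73 ± 0.8 CPM at 6 h and stood at 12.4 ± 3.05 CPM at 12 h, against 12.3 ± 3.7 CPM in vehicle. Fbln1 fell to 13.0 ± 1.18 CPM at 6 h and 15.6 ± 1.66 CPM at 12 h, against 32.6 ± 12.1 CPM. Ltbp4, which binds latent TGF-beta, fell at 12 h to 8.42 ± 1.52 CPM against 20.3 ± 2.14 CPM (-1.27 ± 0.18, adjusted p = 6e-06 by edgeR's quasi-likelihood test). Spp1, or osteopontin, rose at 12 h to 6.63 ± 0.812 CPM against 0.39 ± 0.494 CPM in vehicle (4.17 ± 0.54, adjusted p = 3e-06; 5.85 without vehicle replicate 3). Efemp2, which takes part in elastic fibre assembly, rose to 2.28 ± 0.186 CPM at 6 h against 0.52 ± 0.399 CPM (2.17 ± 0.49, adjusted p = 0.00063; 2.89 without vehicle replicate 3). The vehicle libraries held 1, 4 and 18 reads of Spp1 and 10, 4 and 18 reads of Efemp2. Both genes passed the filter on low counts through their PMA libraries and not through vehicle. Of 5 proteoglycans 1 rose and 1 fell at 6 h, and 3 rose and 0 fell at 12 h (at 12 h 0 rose and 1 fell with upper-quartile scaling, and 0 rose and 2 fell without normalization). Agrn, the basement membrane proteoglycan agrin, fell to 320 ± 12.6 CPM at 6 h and stood at 820 ± 76.9 CPM at 12 h, against 618 ± 66.2 CPM in vehicle. Sdc1, a cell surface proteoglycan, rose at 6 h to 3233 ± 378 CPM against 1899 ± 110 CPM (0.77 ± 0.09, adjusted p = 3e-07).

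Receptors for these proteins went both ways, as did all tested genes, of which 37.8% rose and 39.0% fell at 6 h. Those shares were 37.7% and 38.2% at 12 h. Of 8 receptors tested, 4 rose and 3 fell at 6 h, and 5 rose and 1 fell at 12 h. With upper-quartile scaling 2 rose and 4 fell at 6 h and 5 rose and 3 fell at 12 h. Without normalization 2 rose and 5 fell at 6 h and 2 rose and 3 fell at 12 h. Itga5, the alpha chain of the main fibronectin receptor, rose to 142 ± 7.81 CPM at 6 h and 148 ± 26.7 CPM at 12 h, against 49.8 ± 2.49 CPM in vehicle (1.51 ± 0.11 and 1.57 ± 0.11, adjusted p = 2.1e-09 and 1.4e-09 by edgeR's quasi-likelihood test), while the mean of its ligand gene Fn1 was lower at both times. Itga1, a collagen-binding alpha chain, rose to 44.8 ± 1.8 CPM at 6 h and 34.9 ± 6.37 CPM at 12 h, against 6.48 ± 1.28 CPM (2.79 ± 0.15 and 2.43 ± 0.16, adjusted p = 2.5e-11 and 1.9e-10). Itgb5, which pairs with the alpha V chain, fell to 29.9 ± 1.87 CPM at 6 h and 41.8 ± 2.74 CPM at 12 h, against 115 ± 5.83 CPM (-1.94 ± 0.09 and -1.46 ± 0.09, adjusted p = 2.5e-12 and 9.9e-11). Ddr1, a collagen receptor kinase, fell at 6 h to 58.4 ± 2.59 CPM against 86.5 ± 2.57 CPM (-0.57 ± 0.08, adjusted p = 3.3e-06). Cd47, a receptor for thrombospondin-1, rose at 12 h against 6 h, with 80.2 ± 14 CPM at 12 h against 48.7 ± 3.75 CPM at 6 h (0.72 ± 0.14, adjusted p = 0.00043). Cd44, the hyaluronan receptor, fell in the same comparison, with 1684 ± 206 CPM at 12 h against 2355 ± 149 CPM at 6 h (-0.48 ± 0.09, adjusted p = 0.00027). Against vehicle, at 1816 ± 124 CPM, Cd44 was called higher at 6 h (0.38 ± 0.09, adjusted p = 0.0012) and was not called at 12 h (-0.11 ± 0.09, adjusted p = 0.28). The 6 h call was lost with upper-quartile scaling (0.12, adjusted p = 0.23) and without normalization (-0.16, adjusted p = 0.1).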

How the data were processed

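RNA-seq counts of 9 libraries in 3 groups were used. Per the submitters' processing notes, reads were aligned to rn6 with STAR 2.7.5b. The deposited tables hold raw counts per gene symbol, and the unstranded column was used. No source used here gives the gene annotation. Summary lines of each table, which name no gene, were left out, and 67.8 to 71.3% of reads were in genes. The authors' normalized table (DESeq2, per the submitters' processing notes) was not used here. Groups were read from the sample titles.

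The tests ran edgeR 4.0.16 under R 4.3.3 (filterByExpr with minimum count 10, TMM, robust quasi-likelihood F test, group as the only term, all 9 libraries) and Benjamini-Hochberg adjustment over 10128 genes at 0.05. The common dispersion was 0.0125. The model was tested on simulated data for 6 h against vehicle. In that simulation few genes changed, evenly up and down, and every gene had the common dispersion. In these libraries most genes were called, so the simulation cannot decide how well the scaling holds here. SEs were taken from the F statistic. Log2 CPM used a prior count of 2. limma 3.58.1 (voom), DESeq2 1.42.0, other scalings, no filter, fits on 2 groups, a replicate block and leaving out each library were alternatives. The settings given for the overlap counts of the 6 genes, for the lists and for single list genes were chosen after seeing the data.

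The 6 genes and the lists were chosen with earlier results of these data known. From each of the 7 lists, up to 2 called genes of at least 1 CPM with the largest change in each direction and comparison could be named; most were. Col18a1 and Serpinh1 were named after their values were seen. Libraries of a group differed by more than sampling noise, with a chi-square per degree of freedom of 3.94 to 28.9. Intervals cover counting error only.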

Additional observations from a re-analysis of the deposited data

Results flagged for a closer look

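Of the tested matrix genes, Loxl2, Agrn, Serpinh1 and Itgb6 had calls in opposite directions at 6 h and 12 h against vehicle, with the difference between 12 h and 6 h itself called by edgeR's quasi-likelihood test. Loxl2 had a log2 fold change of -1.38 at 6 h and 1.07 at 12 h against vehicle, and 2.46 between 12 h and 6 h. Agrn had -0.95 at 6 h and 0.41 at 12 h, and 1.36 between them. Serpinh1, a collagen chaperone named after its values were seen, had -0.61 at 6 h and 0.59 at 12 h, and 1.21 between them. Itgb6, the beta chain of an epithelial integrin that binds fibronectin and tenascin, had -0.37 at 6 h (a call lost without 6 h replicate 1, at -0.28) and 0.56 at 12 h, and 0.93 between them. With upper-quartile scaling the 12 h value of Agrn against vehicle was 0.14 (adjusted p = 0.15 by the same edgeR test). Without normalization the 12 h values against vehicle were 0.49 for Loxl2, -0.17 for Agrn, 0.01 for Serpinh1 and -0.02 for Itgb6, none of them called. The values at 6 h and 12 h against vehicle share the vehicle libraries. Groups of 3 libraries are too small for a check of single libraries that stand apart.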

How the results depend on the processing

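The counts of called genes and of called matrix genes stayed within 1.5 times their values under every alternative run. Across these, called matrix genes ranged from 40 to 49 at 6 h and from 34 to 41 at 12 h against vehicle, and from 26 to 32 between 12 h and 6 h. Their split by direction against vehicle was not stable. At 12 h it was 22 higher and 17 lower in the main fit, 16 and 25 with upper-quartile scaling and 8 and 32 without normalization. No fold change of the 6 genes changed sign. Under upper-quartile scaling Fn1 (6 h and 12 h) and Col5a1 (12 h) moved by more than the spread between libraries against vehicle, and without normalization Fn1 (6 h and 12 h) and Tnc, Wisp1 and Col5a1 (12 h) did, in the direction of the median gene. In the fit of the 12 h and 6 h libraries alone, Tnc did not pass the filter. Correlations of deviations from the group mean were -0.115 to 0.027 for same-numbered libraries and -0.072 to 0.087 for differently numbered ones. With 3 libraries in a group this cannot decide whether the replicate numbers pair libraries. With the replicate block 7650, 7539 and 4955 genes were called in the 3 comparisons, against 7776, 7682 and 5175 without it. Depth limits Wisp1, Col5a1 and Tnc under PMA, where libraries held as few as 1 to 3 reads.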
